A study of Mus musculus with 25 samples.

Results

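The Hox genes of the Hoxa, Hoxb, Hoxc and Hoxd loci were read on the arrays as markers of caudal position, to ask whether RNA of hindbrain or trunk was present in dissected mammillary neuroepithelium and whether its amount differed between genotypes. Of 39 mouse Hox genes listed, 36 had a transcript cluster (the array's probe set for a gene) that carried their symbol alone, out of 18820 genes named in this way, and the brightest such cluster stood for each gene. They comprised 10 genes of the Hoxa locus on chromosome 6, 9 of Hoxb on chromosome 11, 9 of Hoxc on chromosome 15 and 8 of Hoxd on chromosome 2. Listed genes without such a cluster were not analysed here. Total RNA came from the mammillary neuroepithelium, the wall of the caudal hypothalamus that later forms the mamillary body (MBO), of C57BL/6 embryos at E10.5, with 1 Affymetrix Mouse Gene 1.1 ST array per biological replicate. The 13 KO arrays were labelled Lhx5 KO, and the mutant line of the study is homozygous for a floxed Lhx5 allele (Lhx5 fl/fl) that was not recombined, kept all its exons and behaved as a hypomorph. The 12 WT arrays came from wild-type embryos of the same strain and age. All values are log2 RMA expression values, on which a difference of 1 is a doubling.

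Hox genes encode homeodomain transcription factors that give cells their identity along the head to tail axis. Their order in each locus follows their order in the body: genes at the 3′ end (low numbers) begin in the hindbrain, whereas genes at the 5′ end (high numbers) are used in the lumbar region, the tail and the distal limb. Forebrain and midbrain do not normally express them, and there the loci are held silent by Polycomb complexes, while Cdx factors and Trithorax complexes serve their activation and Pbx and Meis proteins bind DNA together with Hox proteins.

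The microRNAs made from these loci are shown because their clusters were read as a second sign of Hox locus transcription. Mature sequences are from RefSeq on GRCm38.p6, with the seed (bases 2 to 8) in capitals.
Mir10a mmu-miR-10a-5p, Hoxb locus, chr11:96317186-96317208 (+): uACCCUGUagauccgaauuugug
Mir10b mmu-miR-10b-5p, Hoxd locus, chr2:74726074-74726096 (+): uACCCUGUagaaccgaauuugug
Mir196a-1 mmu-miR-196a-5p, Hoxb locus, chr11:96265187-96265208 (+): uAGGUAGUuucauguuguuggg
Mir196a-2 mmu-miR-196a-5p, Hoxc locus, chr15:102973365-102973386 (+): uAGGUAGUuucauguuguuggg
Mir196b mmu-miR-196b-5p, Hoxa locus, chr6:52230129-52230150 (-): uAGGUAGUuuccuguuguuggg
The miR-10 sequences shared a seed and differed at 1 of 23 bases (U12A, miR-10a first, counted from the 5′ end). The miR-196 sequences shared another seed, were identical for Mir196a-1 and Mir196a-2, and differed at 1 of 22 bases for Mir196b (A12C, miR-196a first).

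Promoter sequence around the transcript start was in the RefSeq table for 20 of the 36 genes, as 22 promoters of 300 bases. Those of Hoxa2, the gene that reaches farthest forward in the hindbrain, and of Hoxb1, the gene of rhombomere 4, are shown because a rise of these genes would mark anterior hindbrain, with the dinucleotide CG in capitals.
Hoxa2, GRCm38.p6, chr6:52164782-52165081 (-): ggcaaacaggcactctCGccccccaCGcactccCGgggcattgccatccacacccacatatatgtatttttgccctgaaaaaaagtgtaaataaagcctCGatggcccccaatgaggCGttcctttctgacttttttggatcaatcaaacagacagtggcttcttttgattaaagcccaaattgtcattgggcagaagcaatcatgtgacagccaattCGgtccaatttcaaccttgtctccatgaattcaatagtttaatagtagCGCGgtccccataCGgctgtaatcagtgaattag
Hoxb1, GRCm38.p6, chr11:96365508-96365807 (+): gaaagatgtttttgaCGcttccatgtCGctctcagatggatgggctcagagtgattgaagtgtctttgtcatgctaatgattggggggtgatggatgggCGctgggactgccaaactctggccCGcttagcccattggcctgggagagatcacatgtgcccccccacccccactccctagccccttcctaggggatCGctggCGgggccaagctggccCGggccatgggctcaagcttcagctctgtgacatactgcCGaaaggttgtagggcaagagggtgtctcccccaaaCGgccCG
They held 9 (Hoxa2) and 10 (Hoxb1) CG dinucleotides. Over the 22 Hox promoters the median was 14.5, with a range from 4 to 45, against a median of 7 over all 32851 promoters of the table and of 1 over 944 promoters of olfactory receptor genes. The ratio of observed to expected CG was above 0.6 in 10 Hox promoters (45.5%), against 35.8% of all promoters. The motif TAATTA, a core that many homeodomain factors bind and that reads the same on both strands, was found in 2 Hox promoters (both of Hoxd11, 9.09%), and in neither of those shown. It was found in 5.29% of all promoters and in 18.6% of those of olfactory receptor genes.

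The KO arrays fell into a set of 3 (replicates 11 to 13) and a set of 10 (replicates 1 to 10). On 35542 probe sets the means of these sets were equal (median absolute difference 1.33e-06), whereas the next closest of the 286 splits of the 13 arrays gave 0.0561. The difference between KO and WT was therefore the difference between KO replicates 11 to 13 and WT for every gene, replicates 1 to 10 added nothing to its direction, and the main fit carried a term for them. The mean level of replicates 1 to 10 was likewise not independent of that of replicates 11 to 13. Counts and ranges that include replicates 1 to 10 thus add no separate evidence of level. A processing difference between KO replicates 11 to 13 and WT cannot be told apart from genotype. Lhx5 was at 7.82, 7.84 and 8.11 in KO replicates 11 to 13 and had a lowest, median and highest value of 7.67, 7.89 and 8.38 in WT, which does not check the labels because the floxed allele keeps its exons. The tissue label was read from 16 measured genes of forebrain and hypothalamus, among them Otx2, Nkx2-1, Sim1, Foxb1 and Lhx1. All 16 lay above background on each of the 15 KO 11 to 13 and WT arrays, as did 12212 of 18820 named genes. All 9 measured blood genes and all 9 measured endothelial genes did too, so this count alone does not identify the tissue.

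Most Hox genes lay below the upper limit of genes that are not expressed, although their mean was above the median of such genes. Background was taken on each array as the 95th percentile of 995 olfactory receptor clusters, which serve smell in the nasal epithelium and not in neuroepithelium, and was 3.45 to 3.57 in KO replicates 11 to 13 and 3.34 to 3.56 in WT. Of the 36 genes, 5 were above it on at least 2 of the 3 KO arrays, against 68.9% of named genes, and 6 on at least 6 of the 12 WT arrays, against 70.6% of named genes and 4.22% of olfactory receptor clusters. Per array, 3, 6 and 4 Hox genes were above background in KO replicates 11, 12 and 13, and a lowest, median and highest number of 6, 7.5 and 11 in WT. At the 99th percentile, 1 gene was above in each KO array and 1 to 3 were in WT. The mean of the 36 genes was above the median of the olfactory receptor clusters on each of these arrays. It was higher by 0.32 to 0.39 in KO replicates 11 to 13 and by 0.36 to 0.50 in WT.

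**Figure D1:**
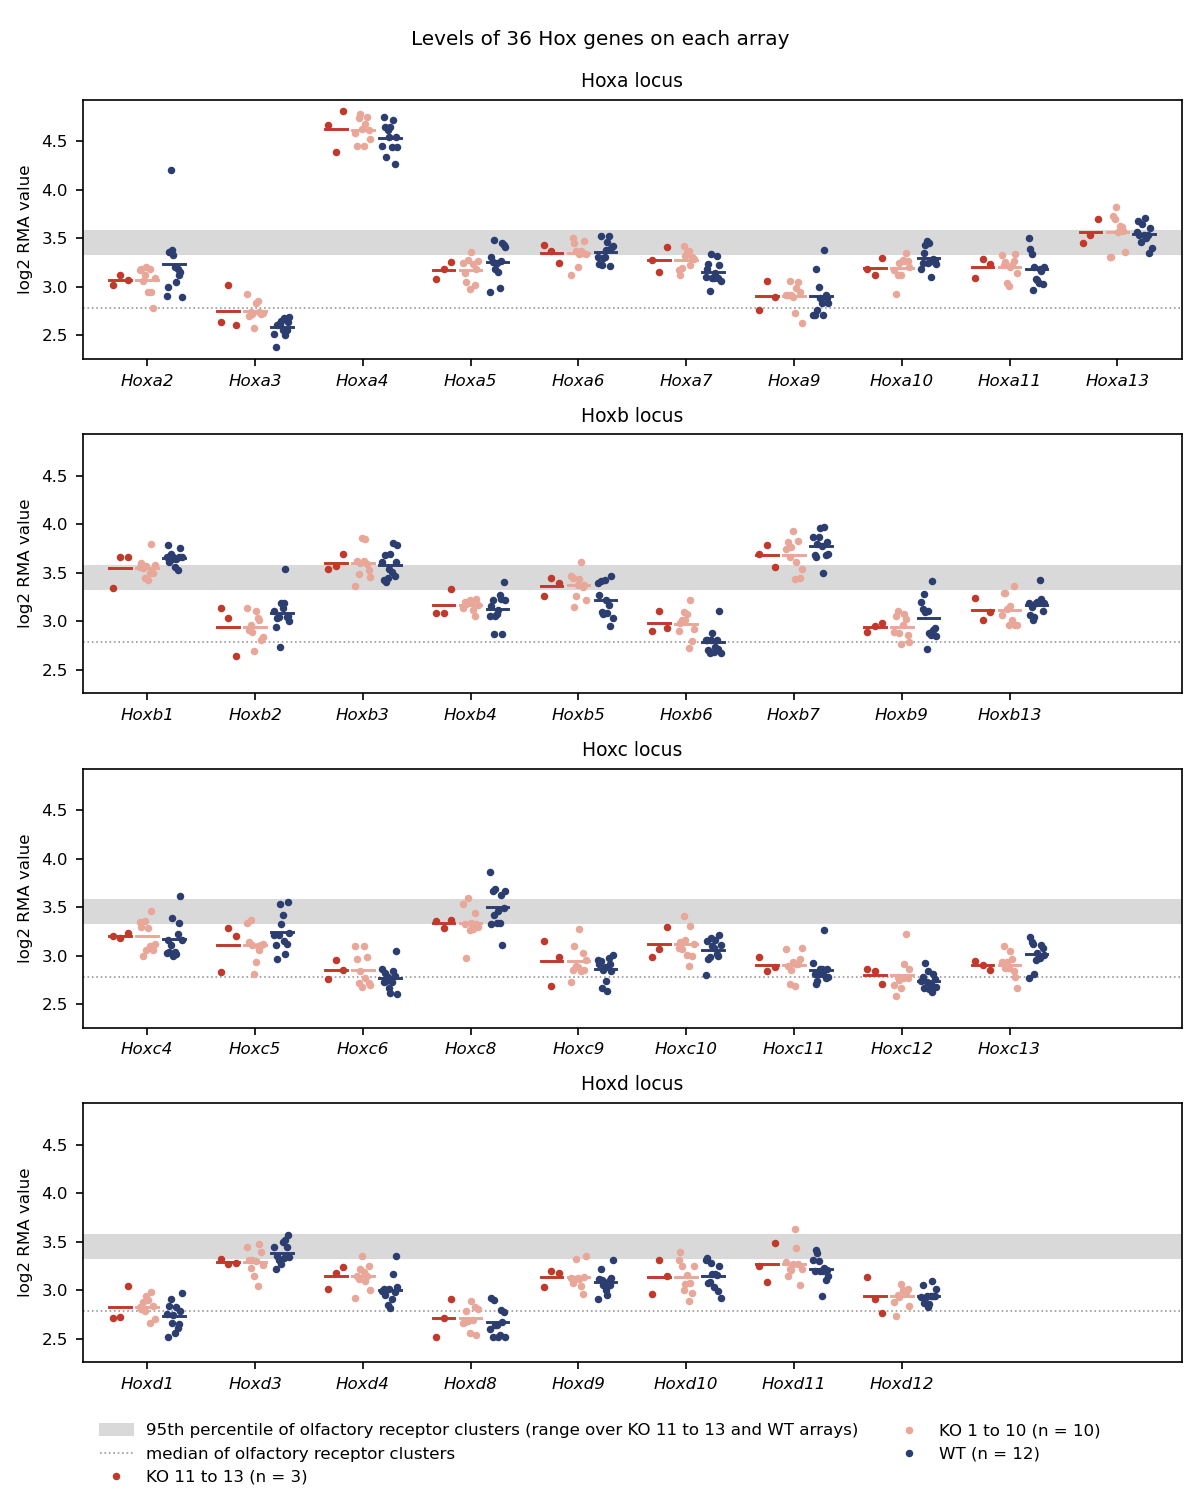
Level of each of 36 Hox genes (y axis, log2 RMA value) on every array, by gene (x axis) and locus (panels), for KO replicates 11 to 13 (n = 3), KO replicates 1 to 10 (n = 10) and WT (n = 12); points are arrays, short lines means, the grey band the range of the background limits of the KO 11 to 13 and WT arrays (3.34 to 3.57) and the dotted line the median of the olfactory receptor clusters. Hoxa4 lies above the band on all 25 arrays, Hoxa2 has 1 WT array at 4.20, and most other genes lie within or below the band.

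Hoxa4, which patterns the neck vertebrae, was above the 95th and the 99th percentile on all 25 arrays, as were 59.0% of named genes and 0.302% of olfactory receptor clusters at the 99th. For Hoxa4 this held on all 3 arrays of KO replicates 11 to 13 and all 12 WT arrays, apart from replicates 1 to 10. Its values were 4.67, 4.39 and 4.81 in KO replicates 11, 12 and 13 and had a lowest, median and highest value of 4.27, 4.55 and 4.75 in WT. The sets overlapped almost fully, and the difference was 0.09 ± 0.09 (SE, 95% interval -0.11 to 0.28). Of the genes near it in the locus, Hoxa3, which patterns the throat skeleton and glands, and Hoxa7, a gene of thoracic identity, were above background on 0 of 25 arrays. Hoxa5, which has roles in lung and neck, was above on 0 of 3 KO and 3 of 12 WT arrays, and Hoxa6 on 0 of 3 KO and 5 of 12 WT arrays. Whether the probes of the Hoxa4 cluster read another transcript was not tested.

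Of the anterior Hoxb genes, Hoxb1 and Hoxb3 were near the limit and Hoxb2 and Hoxb4 mostly below it. Hoxb1 had values of 3.34, 3.66 and 3.66 in KO replicates 11 to 13 and a lowest, median and highest value of 3.53, 3.66 and 3.79 in WT. It was above background on 2 of 3 KO and 12 of 12 WT arrays, and the single KO array at 3.34 lay below every WT array while the others lay within WT. Hoxb3, a gene of rhombomeres and upper spinal cord, had 3.54, 3.57 and 3.69 in KO and 3.41, 3.58 and 3.81 (lowest, median and highest) in WT, with 3 of 3 and 11 of 12 arrays above. The KO values fell within the WT range. Hoxb2, which acts in rhombomeres 3 to 5, had 3.14, 3.04 and 2.64 in KO and 2.74, 3.05 and 3.54 (lowest, median and highest) in WT, and was above background on 0 of 3 KO and 1 of 12 WT arrays. Hoxb4, which lies between Hoxb3 and Hoxb5 in the locus, was above on 0 of 25 arrays.

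Hoxa2 was the gene with the widest spread among WT arrays (SD 0.35, n = 12, against a median SD of 0.13 over the 36 genes). Its values were 3.02, 3.12 and 3.07 in KO replicates 11 to 13 and 2.90, 3.17 and 4.20 (lowest, median and highest) in WT. The WT value of 4.20 was that of replicate 4, above the 99th percentile of background there, and the next WT array was at 3.38. Other genes of the anterior hindbrain did not stand apart there: in WT replicate 4 Hoxb1 (3.70) and Hoxb2 (3.05) were within the range of the other WT arrays, Hoxb3 (3.41) had its lowest WT value, and Egr2, the gene of rhombomeres 3 and 5, was at 3.28 there, its second highest WT value but under the limit of 3.36.

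Of the central and posterior genes, 3 more met the same criterion. Hoxb7, of thoracic cord and mesoderm, had 3.69, 3.79 and 3.56 in KO replicates 11 to 13 and 3.50, 3.79 and 3.97 (lowest, median and highest) in WT, above background on 2 of 3 and 12 of 12 arrays. Hoxa13, of the distal limb and hindgut, had 3.45, 3.54 and 3.70 in KO and 3.35, 3.54 and 3.71 in WT, above on 2 of 3 and 11 of 12 arrays. Hoxc8, of thoracic identity and brachial motor neurons, had 3.36, 3.29 and 3.37 in KO and 3.11, 3.47 and 3.86 in WT, above on 0 of 3 and 7 of 12 arrays. For each of these genes the KO arrays overlapped WT.

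Of the remaining genes, 13 were above background on 1 to 5 of 12 WT arrays, with Hoxa6 and Hoxd3 at 5, and on 0 or 1 of 3 KO arrays. The other 17 of 36 (against 22.0% of named genes and 83.6% of olfactory receptor clusters) were above background on 0 of the 15 arrays and also on 0 of all 25. They were spread over the loci, with 3 of 10 in Hoxa, 2 of 9 in Hoxb, 6 of 9 in Hoxc and 6 of 8 in Hoxd. By position in the locus they were 4 of 11 anterior genes (paralog groups 1 to 4), 4 of 10 central genes (5 to 8) and 9 of 15 posterior genes (9 to 13). The genes above background on at least 6 WT arrays were 3 anterior, 2 central and 1 posterior. No order of levels along a locus was read, since clusters of different genes bind their probes differently.

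Single WT arrays carried much of the spread. Replicates 9 and 11 each held the highest WT value of 9 Hox genes, from all 4 loci in replicate 9 and from Hoxb, Hoxc and Hoxd in replicate 11, and their mean over the 36 genes was 3.25 each, against 3.10 to 3.20 on the other WT arrays and 3.13, 3.18 and 3.20 in KO replicates 11 to 13. In replicate 11 the background limit was itself the highest among WT (3.56). In replicate 9, with a limit of 3.40, Hoxb2 (3.54), Hoxb9 (3.42) and Hoxb13 (3.43) were above background on that WT array alone. These genes belong to hindbrain, thoracic and tail levels, and Hoxb9 and Hoxb13 were chosen for mention after their values were seen. A second background, the 95th percentile of vomeronasal receptor clusters, was 3.43 in replicate 9, about the level of Hoxb9 and Hoxb13 there. It was 3.45 in replicate 11 and 3.18 to 3.29 on the other WT arrays. Whether raised background accounts for these values was not tested.

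The microRNA clusters followed the same pattern. Of 8 measured non-coding transcripts of the loci, 6 were above background on 0 of 15 arrays, namely Mir10a, Mir10b, Mir196a-1, Mir196a-2, Hottip and Hoxd3os1. Mir10a was at 2.46, 2.57 and 2.57 in KO replicates 11 to 13 and at 2.48, 2.54 and 2.68 (lowest, median and highest) in WT, and Mir196b was above on 0 of 3 KO and 2 of 12 WT arrays. The smallest limma adjusted p among these transcripts was that of Mir196a-1 (0.14 ± 0.09, 0.616), at 2.59, 2.71 and 2.87 in KO and 2.44, 2.58 and 2.75 (lowest, median and highest) in WT, with 1 KO array above every WT array. Mir615, hosted within the Hoxc locus, was above on all 15 arrays, at 3.55, 3.84 and 3.95 in KO and 3.47, 3.79 and 4.16 in WT. The array reads total RNA, so these clusters do not measure the processed sequences shown above. Genes flanking the loci were mostly expressed: of 12 measured, 9 were above background on all 15 arrays, against 12212 of 18820 named genes. Among them were the chromatin gene Cbx5 (-0.09 ± 0.06) and the mitochondrial gene Mtx2. The smallest limma adjusted p was that of Skap2 (0.21 ± 0.10, 0.490), followed by Cbx5, Lnpk (-0.09 ± 0.07) and Smug1 (0.09 ± 0.08). Evx1, the homeobox gene beside Hoxa13, was above on 0 arrays, and Evx2, beside Hoxd13, on all 15, at 3.59, 3.89 and 4.09 in KO and 3.40, 3.85 and 4.70 in WT.

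**Figure D2:**
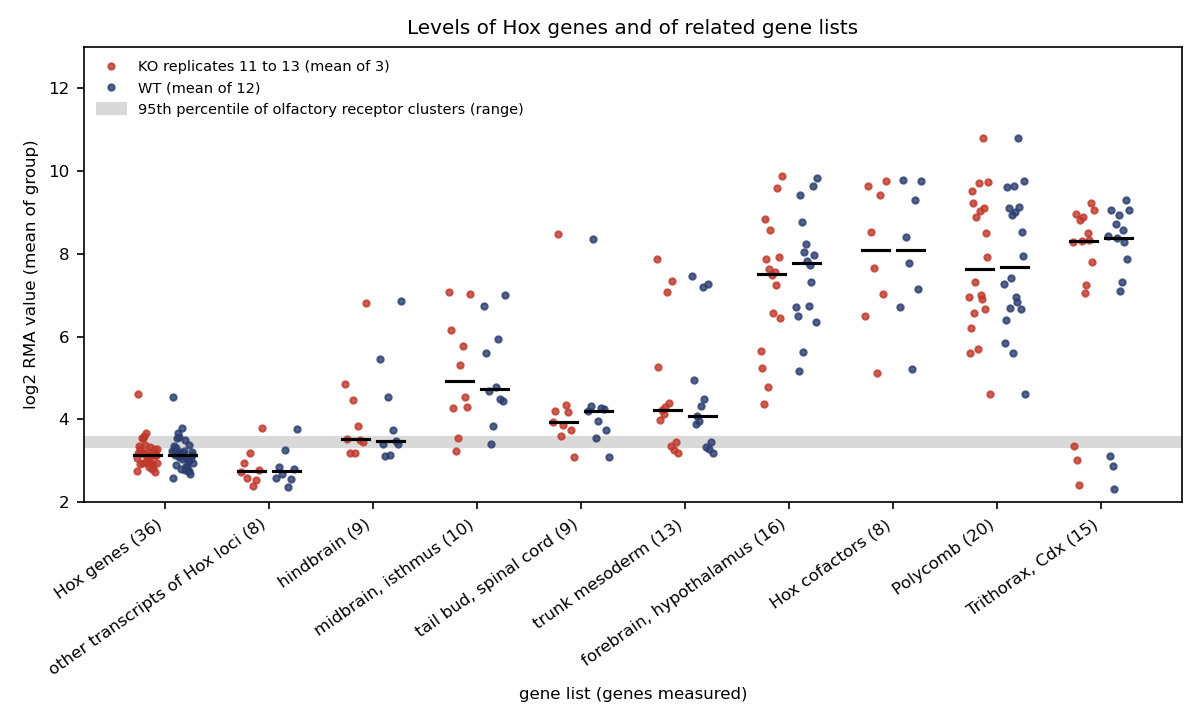
Mean level of each gene (y axis, log2 RMA value) in KO replicates 11 to 13 (mean of 3 arrays) and WT (mean of 12 arrays) for the Hox genes and related lists (x axis, with the number of genes measured); points are genes, black lines list medians and the grey band the range of background limits of these 15 arrays. The 36 Hox genes centre on 3.14 in KO and 3.15 in WT, below the band, while 16 of 16 forebrain and hypothalamus genes, 8 of 8 Hox cofactors and 20 of 20 Polycomb genes lie above the band.

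Markers of hindbrain were mixed. Of 9 measured, 5 (55.6%) were above background on at least 6 of 12 WT arrays, against 70.6% of named genes. Gbx2, Irx2 and Pou4f1, which are also used in diencephalon or midbrain, were above on all 15 arrays, Tlx3 on 2 of 3 KO and 12 of 12 WT arrays, and Lbx1 on 2 of 3 KO and 7 of 12 WT arrays. Egr2 was at 3.09, 3.22 and 3.24 in KO replicates 11 to 13 and at 2.86, 3.13 and 3.52 (lowest, median and highest) in WT, above background on 0 of 3 and 1 of 12 arrays. Ptf1a, which directs cerebellar inhibitory neurons, was above on 0 of 3 and 2 of 12 arrays. Atoh1, of the rhombic lip, was above on 1 of 3 and 4 of 12 arrays, and its highest WT value, 4.88 in replicate 6, stood apart from the next at 3.65. In replicate 6 the Hox mean was 3.17 and 6 Hox genes were above background, both within the range of the other WT arrays. In bulk tissue, fewer cells of a type and less RNA per cell cannot be told apart.

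Tail bud and trunk lists gave a mixed picture. Of the activators of Hox transcription in the tail, Cdx1, Cdx2 and Cdx4 were above background on 0 of 15 arrays, and Fgf4 also on 0. Other genes of the tail bud and spinal cord list were above on all 15 arrays (6 of 9, among them Tbx6, Wnt3a and Nkx1-2), with list means per array of 4.37 to 4.39 in KO replicates 11 to 13 and 4.30 to 4.52 in WT. Of 13 trunk mesoderm genes, 8 were above on all 15 arrays, among them Tbx18, Osr1, Uncx and Pax9. The somite and muscle genes Meox1 and Myog were above on 0 of 3 KO arrays and on 3 and 1 of 12 WT arrays. Over all named genes, 12212 of 18820 were above on all 15 arrays, so the counts of both lists do not mark tail or trunk tissue. The smallest limma adjusted p of these lists were those of Sp8 (-0.28 ± 0.19, 0.662) in the tail bud and spinal cord list and of Tbx18 (0.40 ± 0.29, 0.676) in the trunk mesoderm list. Several genes of both lists are also expressed in head mesenchyme or brain, and their source was not tested.

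Midbrain and isthmus genes varied between arrays far more than the Hox genes. In WT replicate 10, En2 was at 8.16, against 3.17 to 5.71 on the other WT arrays, and Pax5 was at 7.76, against 3.39 to 5.21. Pax8 was at 6.32, against 3.40 to 3.78, and En1 at 7.87, against 5.36 to 6.50. These genes mark the isthmus, the boundary between midbrain and hindbrain, and they were picked out for mention here once their values were known. Of the same list, Pax2 alone had its highest WT value on another array. It was at 5.03 in replicate 10, below replicates 3 (5.09) and 8 (6.28). In KO replicates 11 to 13 En2 was at 5.89, 4.33 and 5.70. The mean of the 10 listed midbrain and isthmus genes was 5.22, 4.95 and 5.22 in KO replicates 11 to 13 and 4.75 to 5.41 in WT apart from replicate 10, which was at 6.66. The Hox genes did not move with them: in that array the Hox mean was 3.11 and 6 of 36 Hox genes were above background, against 3.10 to 3.25 and 6 to 11 on the other WT arrays, and 0 Hox genes had their highest WT value there. Hoxa2 was at 3.12 and Hoxb1 at 3.66 in replicate 10. Since Hoxa2 reaches farthest forward of the Hox genes, hindbrain in front of it carries no Hox mark. Whether such tissue was on this array was not tested. Of the hindbrain genes, Egr2 and Fgf3 had their highest WT value in it, Egr2 at 3.52, just above the limit of 3.39, and Fgf3 at 3.92. The forebrain and hypothalamus mean of this array, 7.23, was the lowest among WT (7.27 to 7.86 on the others) and lay within the 7.09 to 7.40 of KO replicates 11 to 13.

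**Figure D3:**
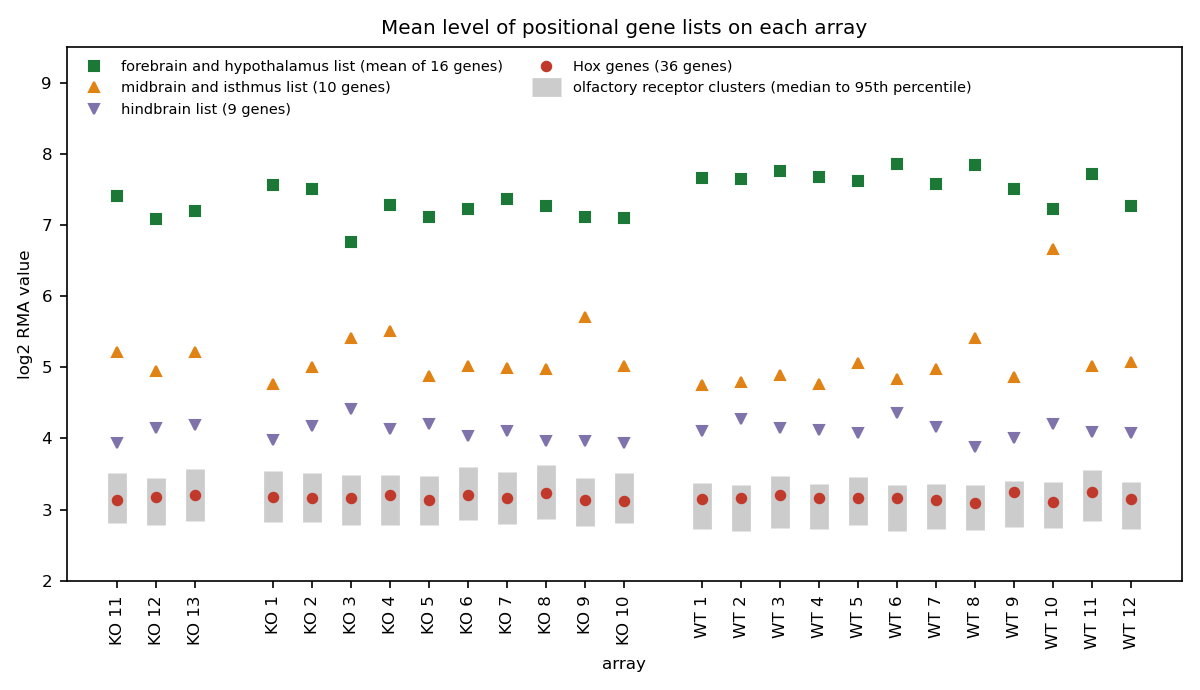
Mean level (y axis, log2 RMA value) of the forebrain and hypothalamus, midbrain and isthmus, hindbrain and Hox lists on each array (x axis: KO replicates 11 to 13, KO replicates 1 to 10, WT replicates 1 to 12); grey bars run from the median to the 95th percentile of the olfactory receptor clusters of the array. The Hox mean stays within the grey bar on all 25 arrays, from 3.10 to 3.25, while the midbrain and isthmus mean reaches 6.66 in WT replicate 10.

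No Hox gene was called as different between KO and WT. With the term for KO replicates 1 to 10, limma called 0 of 36 at an adjusted p below 0.05 (two-sided, Benjamini-Hochberg over 28940 clusters), where 0.0242% of all clusters were called (0.0138% higher and 0.0104% lower in KO). At an unadjusted p below 0.05 there were 2, both higher in KO, beside 10.3% of all clusters (6.2% higher and 4.15% lower). Differences ran from -0.16 to 0.19, with a median of 0.02 (0.01 over all tested clusters, and -0.02 for the Hox genes after repeated quantile normalization) and standard errors from 0.07 to 0.16. They were positive for 21 genes and negative for 15, beside 51.8% positive among all clusters. The 95% intervals of all 36 genes lay between -0.49 and 0.36, or 0.711-fold to 1.29-fold, so that none reached 1.5-fold in either direction. In 0 of 36 genes did KO replicates 11 to 13 all lie above every WT array (0.536% of all clusters) or all below it (0.619%). At levels near background such differences understate changes in RNA.

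**Figure D4:**
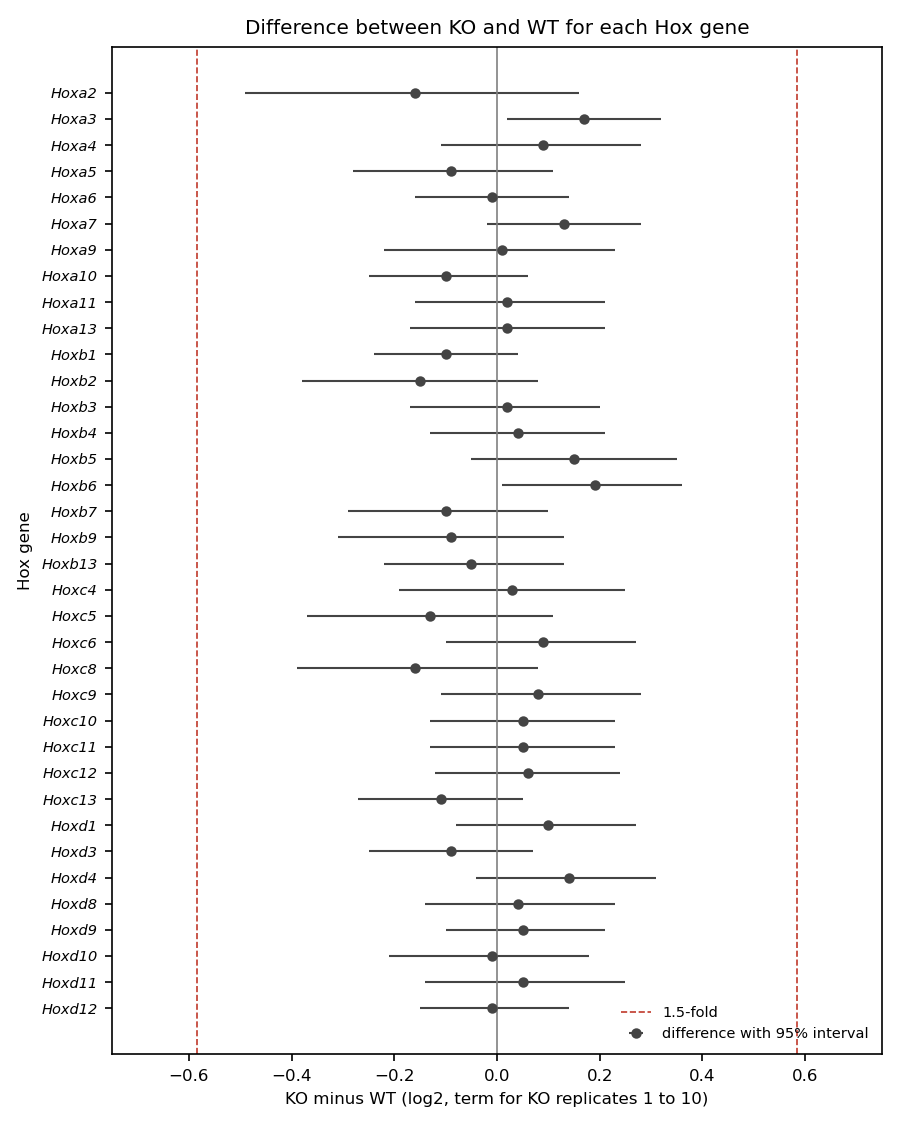
Difference between KO and WT (x axis, log2, with the term for KO replicates 1 to 10) for each of the 36 Hox genes (y axis); points are the estimates, bars their 95% intervals and dashed lines 1.5-fold. The bars of Hoxa3 and Hoxb6 lie above 0, the bars of the other genes include 0, and no bar reaches a dashed line.

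The genes with an unadjusted p below 0.05 were Hoxa3 and Hoxb6, both within background on all 25 arrays. Hoxa3 had 2.64, 3.02 and 2.61 in KO replicates 11, 12 and 13 and 2.38, 2.61 and 2.69 (lowest, median and highest) in WT. Only KO replicate 12 lay above every WT array, and without it the difference of 0.17 ± 0.07 was 0.04. The limma p was 0.0318 (adjusted p = 0.427) and the two-sided exact permutation p over the 455 splits into 3 and 12 arrays was 0.0703. Hoxb6, a gene of thoracic identity, had 2.90, 3.11 and 2.93 in KO and 2.68, 2.77 and 3.11 in WT, a difference of 0.19 ± 0.08 (limma p = 0.0347, adjusted p = 0.438, exact permutation p = 0.0264). The WT array at 3.11 was replicate 11, and the next was at 2.88, below all 3 KO arrays. Without KO replicate 12 the difference was 0.12, with a limma adjusted p of 0.775.

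The largest negative differences were those of Hoxa2 (-0.16 ± 0.16) and Hoxc8 (-0.16 ± 0.11), with limma adjusted p of 0.778 and 0.673. Without WT replicate 4 the difference of Hoxa2 was -0.08. The other genes with the largest difference of either sign in a locus were Hoxb2 (-0.15 ± 0.11), Hoxc6 (0.09 ± 0.09), Hoxd3 (-0.09 ± 0.08) and Hoxd4 (0.14 ± 0.09). The genes near the background limit were Hoxb1 (-0.10 ± 0.07), Hoxb7 (-0.10 ± 0.10), Hoxb3 (0.02 ± 0.09) and Hoxa13 (0.02 ± 0.09). Limma adjusted p of these 8 genes ran from 0.617 to 0.972. By locus the medians were 0.01 (Hoxa), -0.05 (Hoxb), 0.05 (Hoxc) and 0.05 (Hoxd). By position they were 0.03 for anterior, 0.02 for central and 0.02 for posterior genes.

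The count of Hox genes above background was lower in KO than in most WT arrays although the Hox means overlapped. The Hox mean was 3.13, 3.18 and 3.20 in KO replicates 11 to 13, within the WT range of 3.10 to 3.25. The background limit averaged 3.51 in KO replicates 11 to 13 and 3.40 in WT, and the olfactory receptor clusters had a median difference of 0.07. With 1 limit of 3.39 for all arrays, 5, 6 and 8 Hox genes were above it in KO and 5 to 13 in WT, so the ranges overlapped. With genotype as the only term limma called 3 Hox genes, Hoxa3, Hoxa7 and Hoxb6 (adjusted p = 0.0117, 0.0491 and 0.0132), all higher in KO and all within background on all 25 arrays, where 16.7% of all clusters were called (9.68% higher and 6.99% lower in KO). An unadjusted p below 0.05 was then found for 10 of 36 genes, beside 31.2% of all clusters (17.3% higher and 13.9% lower).

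In all the other lists, limma with the term called 0 of 159 genes, where 0.0242% of all clusters were called. At that share a count of 0 tells little about these lists. All 8 measured cofactor genes were above background on every one of the 15 arrays, as were 12212 of 18820 named genes. Pbx4 was at 6.39, 6.64 and 6.45 in KO replicates 11, 12 and 13 and at 6.47, 6.74 and 6.89 (lowest, median and highest) in WT, a difference of -0.22 ± 0.09 (p = 0.0225, adjusted p = 0.382), with the sets overlapping. Pbx3 (-0.15 ± 0.09), Pknox2 (0.13 ± 0.08) and Meis3 (-0.10 ± 0.08) came next, with adjusted p from 0.604 to 0.724.

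All 20 Polycomb genes were above background on all 15 arrays, including the methyltransferase gene Ezh2 and its partners Eed and Suz12. The list had a median difference of -0.01. Ring1, a ubiquitin ligase of Polycomb repressive complex 1, was at 6.83, 6.90 and 7.17 in KO and 7.10, 7.26 and 7.44 (lowest, median and highest) in WT, a difference of -0.32 ± 0.11 (limma p = 0.00865, adjusted p = 0.292), with 2 of 3 KO arrays below every WT array. Cbx8 (-0.25 ± 0.10), a chromodomain subunit of that complex, and Ezh1 (-0.19 ± 0.08), the paralog of Ezh2, had limma adjusted p of 0.341 and 0.417, and Jarid2 (-0.10 ± 0.06) 0.551. With genotype as the only term these 4 of 20 genes were called as lower, beside 6.99% of all clusters.

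Of 15 Trithorax and other activator genes, the 12 apart from the Cdx genes were above background on all 15 arrays, and the list median was -0.06. Kat6a, an acetyltransferase needed for normal Hox expression, was at 8.25, 8.28 and 8.29 in KO and 8.33, 8.45 and 8.52 (lowest, median and highest) in WT. All 3 KO arrays lay below every WT array, as for 0.619% of all clusters, with a difference of -0.17 ± 0.05 (limma p = 0.00429, adjusted p = 0.260), and the exact permutation p of 0.0022 was the smallest the 3 and 12 arrays allow. Cdx1 had 0.25 ± 0.10 (limma p = 0.0178, adjusted p = 0.354) at values from 3.20 to 3.54 in KO and 2.93 to 3.54 in WT, below the limit of each array. Kdm6b (-0.08 ± 0.05) and Cdx2 (0.13 ± 0.10) had limma adjusted p of 0.608 and 0.708.

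With the term, the lists that mark position had no called genes either. The smallest p of the hindbrain list was that of Pou4f1 (-0.60 ± 0.33, limma p = 0.0826, adjusted p = 0.554), followed by Fgf3 (0.12 ± 0.12), Ptf1a (0.07 ± 0.10) and Gbx2 (-0.08 ± 0.14). In the midbrain and isthmus list Lmx1b was at 6.97, 7.05 and 7.25 in KO and 6.42, 6.76 and 7.26 (lowest, median and highest) in WT, a difference of 0.34 ± 0.13 (limma p = 0.0168, adjusted p = 0.350), and Wnt1 (0.57 ± 0.34), Pax2 (-0.40 ± 0.33) and Fgf17 (-0.16 ± 0.14) had limma adjusted p from 0.591 to 0.762. Forebrain and hypothalamus genes had a median of -0.24, and the lowest limma adjusted p was that of Six3 (-1.06 ± 0.29, 0.179), beside Rax (-1.27 ± 0.39), Vax1 (-0.80 ± 0.30) and Lhx2 (-0.57 ± 0.25). Of these 16 genes, 5 had an unadjusted limma p below 0.05 with the term, all lower in KO, beside 10.3% of all clusters (4.15% lower). With genotype as the only term limma called 6 of the 16 as lower and 0 as higher, beside 6.99% and 9.68% of all clusters. The median differences of the other cell type lists were 0.27 for blood, 0.17 for macrophages, 0.10 for endothelium and 0.10 for crest and mesenchyme. Most of their genes were above background on all 15 arrays: 9 of 9 for blood, 7 of 9 for macrophages, 9 of 9 for endothelium and 11 of 12 for crest and mesenchyme. RNA of these cell types was thus read beside that of neuroepithelium. Their part in the Hox values was not tested. No array of hindbrain or trunk was analysed here, so the level that these Hox clusters reach in tissue that expresses them was not measured.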

How the data were processed

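Expression was measured on 25 Affymetrix Mouse Gene 1.1 ST arrays, 13 KO and 12 WT, grouped by the labels. For 35556 probe sets the deposited values are log2 intensities summarised by RMA (robust multiarray averaging), and the authors' processing notes name Affymetrix Expression Console 1.0, affy and R 2.7.0. In some deposited columns, 14 cells that are no log2 value (other numbers, from 32.32 to 10464, against a range of 1.325 to 13.619 elsewhere) were set missing. Probe sets with identifiers below the lowest in the annotation (6616) were left out, and 28940 clusters were tested. Of these, 21218 carried a single symbol, 1881 several and 5841 none. The brightest single-symbol cluster stood for each of 18820 named genes (99.8% of single-symbol clusters matched RefSeq by Entrez number, assembly GRCm38.p6). The Hox genes and all gene lists were chosen with earlier results of these data known.

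The limma package (version 3.58.1, under R 4.3.3) fitted all clusters with terms for genotype and for KO replicates 1 to 10, two-sided, adjusted by Benjamini-Hochberg over all clusters and called below 0.05. An array measurement has no read depth. The difference rested on 3 KO and 12 WT arrays. The residual variance behind each standard error, interval and limma p also drew on KO replicates 1 to 10. A limma fit of WT and KO replicates 11 to 13 alone called 0 of 36 Hox genes, with a lowest adjusted p of 0.396 (Hoxb6). Single genes were also compared by exact permutation over 455 splits. In data simulated for this comparison (28928 clusters) 77 of 100 altered genes were recovered at 1.5-fold and 94 of 100 at 2-fold, with 10 false calls, whereas genotype alone gave 1913 false calls. The simulation drew independent noise at the WT SD of each cluster and added the full change at every level. Array differences near background understate changes in RNA, so these shares do not give the recovery for the Hox genes. Hox genes were named with values if above background on at least 6 WT or 2 KO arrays, at an unadjusted p below 0.05, or with the largest difference of either sign in a locus. In other lists up to 4 genes with the smallest p were named. Others were chosen after their values were seen or only counted. Alternatives were another term, sample set, normalization, array weighting, variance prior, filter on dim clusters, background or cluster rule, embryo sex, the replicate number as a block and each array left out. Centring on olfactory receptor clusters and a common background limit were added after the data were seen. Python 3.11.15 and matplotlib 3.10.9 drew the figures.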

Additional observations from a re-analysis of the deposited data

How the results depend on the processing

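The count of 0 called Hox genes held under each setting that kept the term for KO replicates 1 to 10, including each of 25 arrays left out in turn (0 to 0), and with genotype as the only term it was 3. For the 159 genes of the other lists the count was likewise 0 (0 to 0 with arrays left out), and 21 with genotype alone, a fit that called 16.7% of all clusters. Leaving out clusters below the median level removed all 36 Hox genes, so no Hox value could be had there. The number of Hox genes above background had a median of 8, 1 and 7 in KO replicates 11 to 13 with the 90th percentile, the 99th percentile and vomeronasal receptors as background, and of 12.5, 2 and 12 in WT. With 1 common limit it was 6 in KO and 8.5 in WT, and with arrays left out 3.5 to 5 in KO and 7 to 8 in WT. The median Hox difference of 0.02 was -0.02 after repeated quantile normalization and -0.05 (all clusters -0.07) after centring on olfactory receptors.

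Of 455 values of the 13 named Hox genes, 435 kept their direction and side of the threshold, 2 passed it (Hoxa3 and Hoxb6, genotype alone) and 18 changed sign, all within 0.14 of 0. Hoxa13 was at -0.02 and Hoxb3 at -0.02 after quantile normalization, at -0.01 and 0.00 with array weights, and at -0.06 each after centring on olfactory receptors. With arrays left out Hoxa13 ran from -0.05 to 0.08, Hoxb3 from -0.03 to 0.05, Hoxa4 from -0.01 to 0.20, Hoxb1 from -0.16 to 0.00 and Hoxb2 from -0.25 to 0.00. The cause was not tested. Replicate numbers did not pair the samples: arrays of the same number correlated from -0.335 to 0.428 around their group means, 4 of 12 pairs were above 0.1, and 0 KO arrays correlated best with their own number. With the replicate number as a block beside the term, 0 Hox genes and 0 of all clusters were called, and the differences were 0.04 for Hoxa2, -0.01 for Hoxa13, 0.06 for Hoxb2, -0.14 for Hoxb3 and -0.10 for Hoxd4.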
